A study of Homo sapiens with 9 samples.

Results

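The comparison described here is of A673 cells given siLRWD1-6, a small interfering RNA (siRNA) directed at LRWD1, with A673 cells given a scrambled siRNA. A673 is an established Ewing sarcoma cell line whose growth depends on EWS-FLI1, a fusion oncoprotein that joins EWSR1 to the ETS factor FLI1. The siLRWD1-6 group and the scrambled group had 3 libraries each, which were chosen by their labels and make up 6 of the 9 libraries of the series. The other 3 libraries received a second siRNA against LRWD1, siLRWD1-5. Their values are given only where the siRNAs are set against each other or replicate numbers are compared. They share in the fit behind every p-value. With the 2 groups compared alone 934 genes were called higher and 690 lower, fewer than in the counts below. Cells of both groups were reverse transfected with 13 nM siRNA, and total RNA was taken 48 h later in 3 independent experiments. Both groups were kept in high-glucose medium with Tet-approved serum, Zeocin and blasticidin, and no transgene is named in the labels used here. A single line and a single siRNA are compared with the control, so effects that follow from loss of LRWD1 and any other effects of siLRWD1-6 cannot be told apart in this comparison.

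LRWD1, also known as ORCA, is a WD-repeat protein that holds the origin recognition complex on chromatin, where replication origins are licensed, and it also localises to heterochromatin. Among the gene lists used here, chaperones of the endoplasmic reticulum had the largest share of members called higher (69.2%). The largest list medians, log2 fold changes of 0.78 and 0.51, were those of lists that belong to the integrated stress response. In that response, kinases that phosphorylate the initiation factor eIF2 slow general translation while the messenger RNA of the transcription factor ATF4 is translated more, and ATF4 then activates genes for amino acid synthesis, amino acid uptake and tRNA charging. One of those kinases, PERK (EIF2AK3), sits in the endoplasmic reticulum (ER) membrane, where unfolded proteins also activate the sensors IRE1 and ATF6, which raise chaperones and components of secretory transport.

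The libraries held 12124862 to 14543084 counted reads with siLRWD1-6 and 12831417 to 15674452 with scrambled siRNA. Expression levels below are counts scaled to libraries of 1000000 reads (CPM) after TMM normalization, and 1 CPM stood for 11.81 to 15.83 counts in these 6 libraries. Scrambled 2 stood apart from the other scrambled libraries. The chi-square per gene between its counts and those of scrambled 1 and 3 was 29.57 and 24.99, compared with 3.03 to 3.73 among the siLRWD1-6 libraries and 3.68 between scrambled 1 and scrambled 3. In scrambled 2, 412 genes lay at least 2-fold from the mean of the other 2 scrambled libraries, and in the siLRWD1-6 libraries 15 to 20 genes did so. Results are therefore given with all 3 scrambled libraries, and also without scrambled 2 where a named gene lost its call or its called log2 fold change moved by more than 1.5 times.

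LRWD1 had 6.55, 8.11 and 8.55 CPM with siLRWD1-6, against 49.1, 54.6 and 49.3 CPM with scrambled siRNA. Every siLRWD1-6 library was lower than every scrambled library, and scrambled 2 was close to the other controls. The log2 fold change of siLRWD1-6 over scrambled was -2.72 (SE 0.11, adjusted p = 1.7e-07 from the quasi-likelihood test of edgeR, Benjamini-Hochberg corrected over 13648 genes), and -2.66 without scrambled 2. All log2 fold changes, standard errors (SE) and adjusted p-values below come from this fit unless another is named. A value given as a rise, or in brackets after a gene, is a log2 fold change, and a gene is called higher or lower at an adjusted p under 0.05. The p-values measure the spread between the libraries of a group, which the labels describe as separate experiments.

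Across all genes, 1203 of 13648 were called higher with siLRWD1-6 (8.81%) and 1062 lower (7.78%). Of these, 78 were at least 2-fold higher and 108 at least 2-fold lower. The median change among the called genes was 1.36-fold, and the median log2 fold change of all tested genes was -0.02. Without scrambled 2, 2107 genes were higher (15.4%) and 1843 lower (13.5%), with 103 and 164 at 2-fold or more. The median over all genes was then -0.003. The count of calls also depended on each siLRWD1-6 library, with 758 higher and 514 lower genes without siLRWD1-6 1, 761 and 611 without siLRWD1-6 2, and 902 and 622 without siLRWD1-6 3. Gene lists are given below by the number of tested members called. Each such number is to be read beside the shares of all tested genes, 8.81% higher and 7.78% lower, or 15.4% and 13.5% without scrambled 2. Where leaving out 1 library moved such a number by more than 1.5 times, the number without that library follows in brackets, as a range over the left-out libraries where fewer than 5 members were called.

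**Figure D1:**
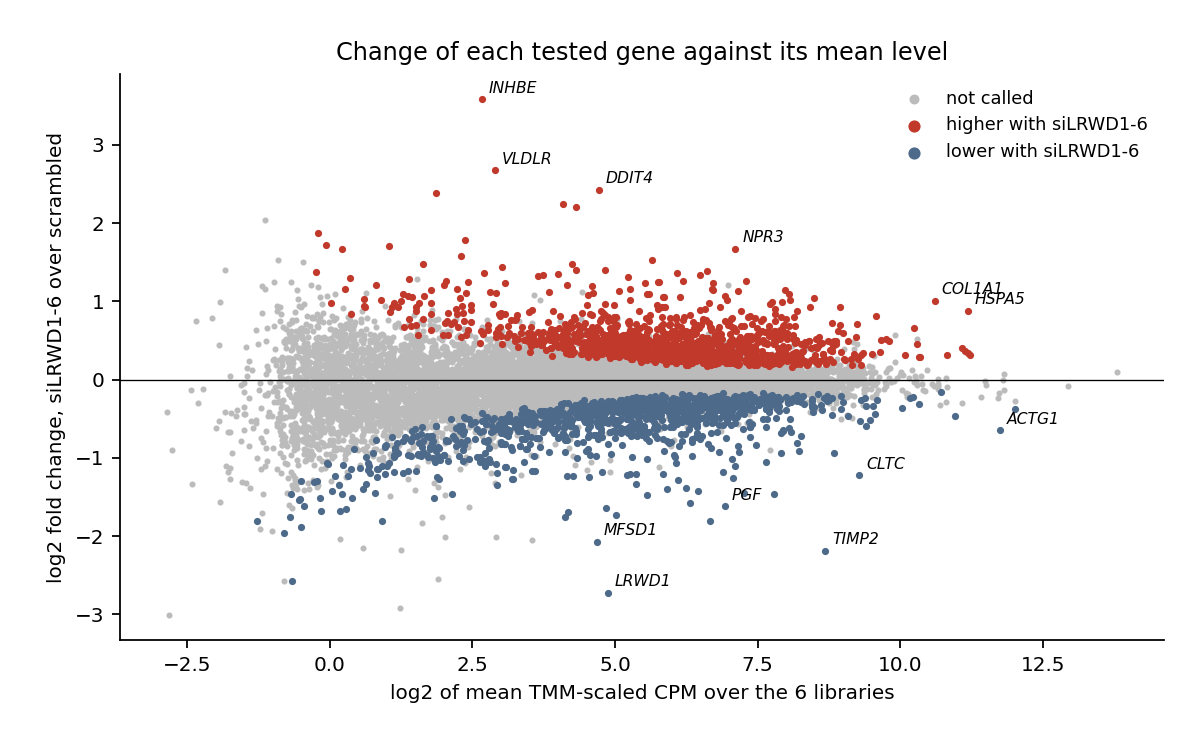
Each point is 1 of 13648 tested genes, with the log2 of its mean TMM-scaled CPM over the 6 libraries on the x axis and its log2 fold change, siLRWD1-6 over scrambled, on the y axis. Red points (1203) were called higher and blue points (1062) lower at an adjusted p under 0.05, and labels mark 12 genes, with INHBE at 3.58 and LRWD1 at -2.72.

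The rule that named the 25 largest changes per direction, and the genes with most reads, required a call and groups that did not overlap. For genes named that way, neither is separate support. INHBE rose most of all named genes. It encodes a subunit of activin E, a secreted protein of the TGF-beta family, and had 13.7, 11.2 and 10.4 CPM with siLRWD1-6, against 0.695, 0.567 and 1.70 CPM with scrambled siRNA (log2 fold change 3.58, SE 0.31, adjusted p = 2.5e-05). Its groups did not overlap, and it was also higher with siLRWD1-6 than with siLRWD1-5 (5.00, adjusted p = 1.4e-06 by edgeR). VLDLR, a receptor for lipoproteins, had 13.8, 12.1 and 12.7 CPM with siLRWD1-6, against 2.40, 1.86 and 1.70 CPM with scrambled siRNA (log2 fold change 2.67, SE 0.17, adjusted p = 3.9e-06). DDIT4, a stress-induced inhibitor of mTORC1 signalling, had 46.1, 46.2 and 40.4 CPM with siLRWD1-6, against 8.28, 10.6 and 5.86 CPM with scrambled siRNA (log2 fold change 2.42, SE 0.17, adjusted p = 6.2e-06). For both genes the lowest siLRWD1-6 library was above the highest scrambled one. CHAC1, a glutathione-degrading enzyme induced by ATF4 and CHOP, had 39.1, 31.9 and 27.3 CPM with siLRWD1-6, against 6.07, 7.94 and 7.48 CPM with scrambled siRNA (log2 fold change 2.20, SE 0.18, adjusted p = 2.4e-05). PCK2, the mitochondrial enzyme that makes phosphoenolpyruvate from oxaloacetate, had 30.7, 27.7 and 26.0 CPM with siLRWD1-6, against 7.01, 3.48 and 7.10 CPM with scrambled siRNA (log2 fold change 2.25, SE 0.20, adjusted p = 4.2e-05). Scrambled 2 was the lowest control for PCK2, and without it the log2 fold change was 2.01.

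Further genes among the 25 with the largest rises were of several kinds. Secreted or matrix proteins were represented by the matrix protein matrilin-2 (MATN2, 1.78), the peptide hormone adrenomedullin 2 (ADM2, 1.40), the stress cytokine GDF15 (1.35), stanniocalcin 2 (STC2, 1.31) and TGFB2 (1.25), a TGF-beta ligand. Membrane proteins were represented by the natriuretic peptide clearance receptor NPR3 (1.67), the lysophosphatidylcholine transporter MFSD2A (1.36), the endothelin-converting enzyme ECE2 (1.33) and the T-type calcium channel CACNA1I (1.25). NPR3, which had 216, 179 and 237 CPM with siLRWD1-6, against 68.7, 48.0 and 81.9 CPM with scrambled siRNA, took the most reads of these. The translation inhibitor PDCD4 (1.47), the ubiquitin ligase NEDD4 (1.36), the Golgi transport protein GOLT1B (1.34), the repressor ZNF238 (1.25) and FAM114A1 (1.53) also rose. The open reading frames C6orf223 (1.44) and C5orf43 (1.26), whose roles are not described here, completed the set together with stress genes described below. By edgeR, the adjusted p-values of these genes were 0.011 or smaller. NEDD4 and C5orf43 showed the largest shift with scrambled 2, at 1.76 and 1.65 without it.

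**Figure D2:**
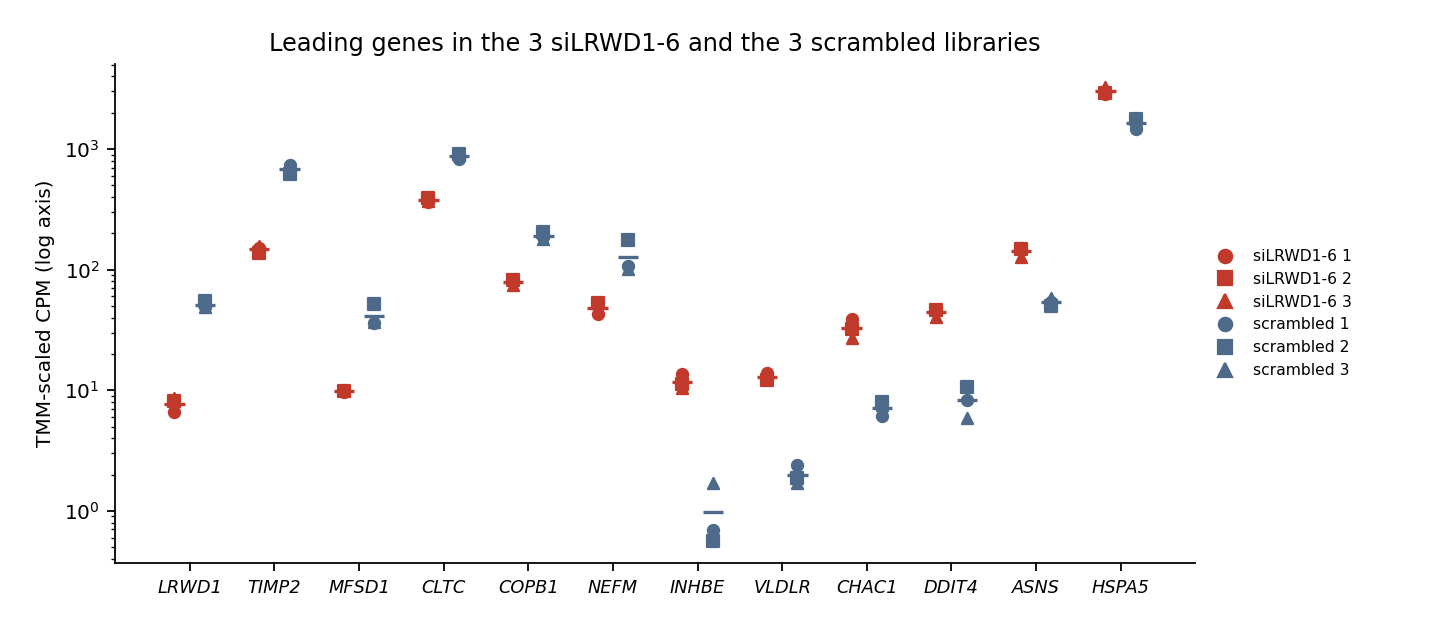
TMM-scaled CPM on a log axis for 12 genes, with siLRWD1-6 libraries in red at the left of each gene and scrambled libraries in blue at the right, 1 symbol per library number and a bar at each mean. For LRWD1, TIMP2, MFSD1, CLTC, COPB1 and NEFM every siLRWD1-6 library was below every scrambled library, and for INHBE, VLDLR, CHAC1, DDIT4, ASNS and HSPA5 every one was above. The rule that named genes by size of change or by reads required such separation.

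The kinases and factors of the ATF4 pathway were mostly higher with siLRWD1-6. Of 18 tested members, 12 were called higher and 0 (1 at an unadjusted p under 0.05, 0 by DESeq2, up to 1 with 1 library left out) lower, with a median log2 fold change of 0.51 beside -0.02 over all genes, and 15 were higher without scrambled 2. ATF4 itself had 478, 454 and 416 CPM with siLRWD1-6, against 247, 218 and 242 CPM with scrambled siRNA (log2 fold change 0.93, SE 0.07, adjusted p = 1.3e-05), and the siLRWD1-6 libraries were all above the controls. Among the eIF2 kinases, EIF2AK3 (PERK) had 52.8, 48.7 and 52.6 CPM with siLRWD1-6, against 26.2, 21.6 and 28.1 CPM with scrambled siRNA (log2 fold change 1.02, SE 0.09, adjusted p = 3.9e-05). EIF2AK1 (HRI), the haem-regulated kinase, rose by 0.48, while EIF2AK4 (GCN2) and EIF2AK2 (PKR) were not called, at 0.07 and -0.10. The GCN2 co-activator GCN1L1 (0.24) and its inhibitor IMPACT (0.44) both rose. Levels of messenger RNA were measured here, and the activity of the kinases was not.

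Downstream factors followed the same direction. DDIT3, which encodes the pro-apoptotic factor CHOP, had 77.6, 75.3 and 82.7 CPM with siLRWD1-6, against 41.3, 56.0 and 39.8 CPM with scrambled siRNA (log2 fold change 0.78, SE 0.11, adjusted p = 0.00082). ATF3, a bZIP repressor, had 67.7, 69.2 and 73.1 CPM with siLRWD1-6, against 34.0, 39.9 and 35.2 CPM with scrambled siRNA (log2 fold change 0.95, SE 0.08, adjusted p = 1.9e-05). TRIB3, a pseudokinase that restrains ATF4 and AKT, had 129.9, 108 and 115 CPM with siLRWD1-6, against 57.6, 71.2 and 61.1 CPM with scrambled siRNA (log2 fold change 0.89, SE 0.09, adjusted p = 9.3e-05). In each of these the groups did not overlap. The partner factors CEBPG and JDP2 rose by 0.76 and 1.33, and the stress protein NUPR1, which lay below 5 CPM on average, by 2.39. Of the eIF2 phosphatase subunits, the constitutive PPP1R15B rose by 0.55, whereas the inducible PPP1R15A (GADD34) was not called (0.14, adjusted p = 0.67 by edgeR). PPP1R15A had 181, 213 and 209.6 CPM with siLRWD1-6, against 138, 247 and 162 CPM with scrambled siRNA, with scrambled 2 above all other libraries, and without that library it was called higher (0.43, adjusted p = 0.008 by edgeR). ATF5 and CEBPB were likewise called only without scrambled 2, at 0.59 and 0.38.

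Among 19 stress effectors under ATF4 and CHOP, 13 were higher and 1 lower, and the median was 0.78. The number of higher members ranged from 11 to 14 when each of the 6 libraries was left out in turn. SESN2, a leucine sensor that restrains mTORC1, had 67.4, 60.2 and 66.6 CPM with siLRWD1-6, against 24.4, 31.3 and 26.8 CPM with scrambled siRNA (log2 fold change 1.24, SE 0.11, adjusted p = 2.5e-05). VEGFA, the angiogenic growth factor that ATF4 can also induce, had 166, 146 and 139 CPM with siLRWD1-6, against 79.2, 84.2 and 74.8 CPM with scrambled siRNA (log2 fold change 0.92, SE 0.08, adjusted p = 2.5e-05). The cysteine-forming enzyme CTH rose by 0.78, FAM129A by 0.66 and the translation repressor EIF4EBP1 by 0.24. TXNIP, an inhibitor of thioredoxin, was the member that fell, at 23.1, 17.5 and 23.0 CPM with siLRWD1-6, against 37.1, 38.7 and 37.1 CPM with scrambled siRNA (log2 fold change -0.83, SE 0.11, adjusted p = 0.00068). CDKN1A, which encodes the cell cycle inhibitor p21, was not called (-0.08) and had 322, 453 and 399 CPM with siLRWD1-6, against 275, 691 and 277 CPM with scrambled siRNA. Its level in scrambled 2 was above every other library, and it contributed to the summed CPM of the list, which was 1652, 1642 and 1649 CPM with siLRWD1-6, against 1129, 1570.3 and 1133 CPM with scrambled siRNA.

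The promoters of these genes can carry the amino acid response element, a composite site that ATF4 and C/EBP factors share. The motif TGATGNAA was searched on both strands of the RefSeq promoter windows of build GRCh38.p14, which hold 250 bases before and 50 after each start. Windows were matched for 10608 of the 13648 tested genes (77.7%). Of the 131 tested members of the ATF4, amino acid and cytosolic tRNA synthetase lists, 103 matched. The motif was in 17 of the 48 matched members that were called higher (35.4%) and in 3 of the 55 that were not (5.45%). It was in 295 of the 10608 tested genes with a window (2.78%) and in 1217 of the 27305 genes of the table (4.46%). These shares describe letters in a window and no binding was measured. A gene was counted if any of its windows held the motif, so genes with more listed starts had more chances of a match. Windows of 5 higher members are shown as examples, with the motif, or its reverse complement where it lies on the other strand, in capitals. CEBPG (0.76), SLC1A4 (0.71) and CARS (0.67) also held the motif and rose more than SLC1A5 (0.62), but are not shown. ASNS and ATF3 have 2 listed starts and JDP2 and SLC1A5 have 3, and only a window that held the motif is shown.
CHAC1 (promoter at chr15:40953221-40953520, plus strand): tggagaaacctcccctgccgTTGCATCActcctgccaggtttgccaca
ASNS (promoter at chr7:97872359-97872658, minus strand): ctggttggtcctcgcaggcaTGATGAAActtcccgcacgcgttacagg
JDP2 (promoter at chr14:75427772-75428071, plus strand): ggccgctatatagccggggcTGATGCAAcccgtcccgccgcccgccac
ATF3 (promoter at chr1:212565157-212565456, plus strand): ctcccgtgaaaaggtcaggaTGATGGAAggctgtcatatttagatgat
SLC1A5 (promoter at chr19:46784765-46785064, minus strand): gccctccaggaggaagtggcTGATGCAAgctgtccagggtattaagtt
The motif began 209 bases before the listed start in CHAC1, 68 in ASNS, 16 in JDP2, 191 in ATF3 and 97 in SLC1A5, which encodes the glutamine transporter ASCT2.

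Enzymes that make amino acids rose in part. ASNS, the asparagine synthetase, had 151, 149 and 127 CPM with siLRWD1-6, against 54.1, 50.0 and 58.4 CPM with scrambled siRNA (log2 fold change 1.39, SE 0.10, adjusted p = 6.2e-06), and the groups did not overlap. Of 22 serine and one-carbon enzymes, 9 (5 without siLRWD1-6 2) were higher and 0 (4 at an unadjusted p under 0.05, 0 by DESeq2, up to 4 with 1 library left out) lower, and the median was 0.06, close to the -0.02 of all genes. PSAT1, the phosphoserine aminotransferase, had 211, 201 and 174 CPM with siLRWD1-6, against 94.8, 68.6 and 104 CPM with scrambled siRNA (log2 fold change 1.13, SE 0.14, adjusted p = 0.00078). MTHFD2, a mitochondrial folate dehydrogenase, had 292, 292 and 248 CPM with siLRWD1-6, against 144, 134 and 150.0 CPM with scrambled siRNA (log2 fold change 0.96, SE 0.08, adjusted p = 1.4e-05). PSPH (0.80), PHGDH (0.68), SHMT2 (0.46), the mitochondrial serine carrier SFXN1 (0.42) and MTHFD1L (0.32) also rose. The cytosolic and nucleotide-making members TYMS (-0.33) and MTHFD1 (-0.24) were not called with all controls, and were called lower without scrambled 2 (-0.52 and -0.34). PHGDH was lowest in scrambled 2, and its log2 fold change was 0.50 without that library.

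Of 24 enzymes of asparagine, proline, transaminase and transsulfuration reactions, 10 were higher and 2 (0 to 5) lower. PYCR1, which completes proline synthesis, had 217, 206 and 210.2 CPM with siLRWD1-6, against 126, 117 and 117 CPM with scrambled siRNA (log2 fold change 0.81, SE 0.06, adjusted p = 1.2e-05). GPT2, the mitochondrial alanine aminotransferase, rose by 0.80, the branched-chain aminotransferase BCAT1 by 0.51, the transsulfuration enzyme CBS by 0.56 and the proline and ornithine enzyme ALDH18A1 by 0.47. Glutamate dehydrogenase GLUD1 (-0.27) and glutamine synthetase GLUL (-0.21) were lower, and both lost their calls when scrambled 3 or any of the siLRWD1-6 libraries was left out.

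Amino acid transporters showed a mixed pattern, with 9 (14 without scrambled 2) of 27 higher, 2 (1 to 3) lower and a median of 0.25. SLC7A11, the cystine and glutamate exchanger, had 358, 349 and 334 CPM with siLRWD1-6, against 127, 203 and 139.8 CPM with scrambled siRNA (log2 fold change 1.15, SE 0.15, adjusted p = 0.0011). SLC6A9, a glycine transporter, had 26.5, 26.7 and 21.9 CPM with siLRWD1-6, against 12.7, 7.13 and 12.3 CPM with scrambled siRNA (log2 fold change 1.21, SE 0.22, adjusted p = 0.0051). SLC1A5 had 559, 589 and 604 CPM with siLRWD1-6, against 363, 395 and 384 CPM with scrambled siRNA (log2 fold change 0.62, SE 0.06, adjusted p = 4.2e-05). The 3 genes had no overlap between groups. SLC1A4 (0.71), the arginine transporter SLC7A1 (0.54) and the neutral amino acid transporters SLC38A2 (0.51) and SLC38A1 (0.48) also rose. The lysosomal transporter SLC36A1 (-0.71) and the mitochondrial glutamate carrier SLC25A22 (-0.37) fell. SLC3A2, the shared heavy chain of SLC7A11 and SLC7A5, was not called (0.21) and had 349.8, 342 and 366 CPM with siLRWD1-6, against 267, 370.2 and 275 CPM with scrambled siRNA. Without scrambled 2, 14 members were higher and 3 lower, with SLC3A2 at 0.39 and SLC7A5 at 0.21 among the higher.

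Cytosolic aminoacyl-tRNA synthetases, which charge tRNAs with amino acids, were higher in 10 of 23 members and lower in 1 (0 to 2). The median was 0.16, and 15 members were higher without scrambled 2. GARS, the glycyl-tRNA synthetase, had 624, 615 and 586 CPM with siLRWD1-6, against 358, 391.7 and 379 CPM with scrambled siRNA (log2 fold change 0.69, SE 0.06, adjusted p = 1.7e-05). CARS, for cysteine, had 108, 104 and 103 CPM with siLRWD1-6, against 62.8, 72.8 and 62.7 CPM with scrambled siRNA (log2 fold change 0.67, SE 0.07, adjusted p = 0.00012). AARS (0.55), SARS (0.50), IARS (0.50), EPRS (0.49), MARS (0.46), YARS (0.46), TARS (0.37) and WARS (0.27) also rose, whereas KARS (-0.29, and -0.19 without scrambled 2), for lysine, was the lower one. Of the 17 mitochondrial synthetases, 1 was higher (AARS2, 0.18) and 2 were lower (TARS2, -0.35, among them), and 0 to 1 member was higher and 1 to 2 were lower as single libraries were left out. Of 31 translation initiation factors, 2 (0 to 5) were higher and 3 lower, and the lower ones were EIF2B3 (-0.48), a subunit of the exchange factor for eIF2, EIF4G2 (-0.36) and EIF4A2 (-0.21), which was at -0.13 and not called without scrambled 2. The shares of higher and lower members, 5.88% and 11.8% of the mitochondrial synthetases and 6.45% and 9.68% of the initiation factors, stand beside the 8.81% and 7.78% of all tested genes.

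**Figure D3:**
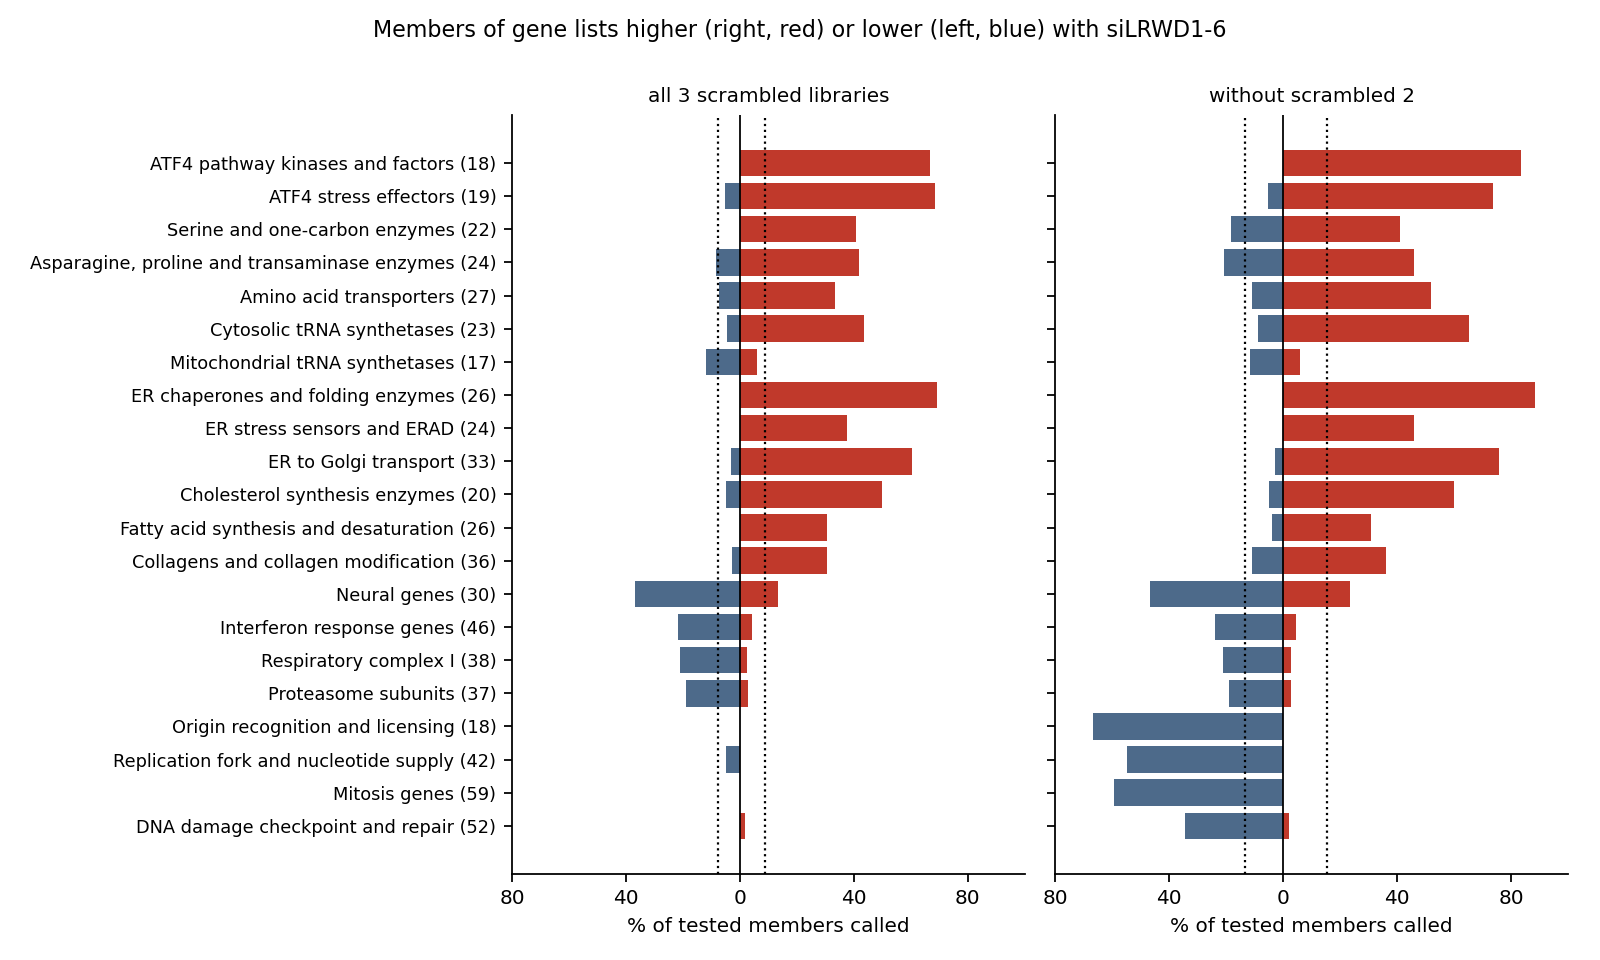
Share of tested members of 21 gene lists called higher (red, to the right) or lower (blue, to the left) with siLRWD1-6, with all 3 scrambled libraries in the left panel and without scrambled 2 in the right, and the number of tested members in brackets. Dotted lines mark the shares of all tested genes (8.81% and 7.78% at the left, 15.4% and 13.5% at the right). The stress and ER lists extended to the right in both panels, and the origin, mitosis and repair lists had bars to the left in the right panel alone.

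Chaperones and folding enzymes of the ER were higher in 18 of 26 members and lower in 0 (0 at an unadjusted p under 0.05, 0 by DESeq2), with a median of 0.33. That count ranged from 15 to 23 as single libraries were left out, and was 23 without scrambled 2. HSPA5, which encodes the ER chaperone BiP, had 2863, 2901 and 3288 CPM with siLRWD1-6, against 1474, 1783 and 1665 CPM with scrambled siRNA (log2 fold change 0.88, SE 0.08, adjusted p = 4.2e-05), and every siLRWD1-6 library was above every scrambled one. PDIA5, a disulfide isomerase, had 125, 107 and 118 CPM with siLRWD1-6, against 73.9, 71.4 and 63.2 CPM with scrambled siRNA (log2 fold change 0.74, SE 0.08, adjusted p = 0.00012). PDIA4 (0.52), MANF (0.50), the HSP90 paralogue HSP90B1 (0.36), PDIA3 (0.35), calreticulin (CALR, 0.34) and calnexin (CANX, 0.32) moved by less. HYOU1 (0.07), which exchanges nucleotide on BiP, and DNAJB9 (0.13), a co-chaperone induced through IRE1 and XBP1, were not called with all controls, and DNAJB9 was called without scrambled 2 (0.27).

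ER stress sensors and components of ER-associated degradation had 9 of 24 members higher and 0 (2 at an unadjusted p under 0.05, 0 by DESeq2, up to 1 with 1 library left out) lower. HERPUD1, a membrane protein of the degradation complex, had 214, 224 and 229.9 CPM with siLRWD1-6, against 71.6, 119 and 88.7 CPM with scrambled siRNA (log2 fold change 1.26, SE 0.15, adjusted p = 0.00058). XBP1, the factor whose messenger RNA is spliced by IRE1, had 206, 213 and 209 CPM with siLRWD1-6, against 114, 138 and 131 CPM with scrambled siRNA (log2 fold change 0.71, SE 0.07, adjusted p = 6e-05). The ubiquitin ligase SYVN1 had 114, 107 and 107 CPM with siLRWD1-6, against 62.2, 75.8 and 67.2 CPM with scrambled siRNA (log2 fold change 0.67, SE 0.09, adjusted p = 0.00038). None of these 3 genes overlapped between groups. The ER-bound factors CREB3 and CREB3L1 each rose by 0.50, and DERL1 by 0.39. The sensors ERN1 (IRE1) and ATF6 were not called, at 0.09 and -0.08. EDEM1, which directs misfolded glycoproteins to degradation, had 167, 171 and 173 CPM with siLRWD1-6, against 90.0, 163 and 109 CPM with scrambled siRNA, was not called with all controls (0.50) and was called without scrambled 2 (0.79, adjusted p = 2e-08 by edgeR).

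The ER stress element, CCAAT followed by 9 bases of any kind and CCACG, is the promoter site through which ATF6 acts with NF-Y. Of the 83 tested members of the chaperone, sensor and transport lists, 75 had a RefSeq window. The element was found on either strand of any listed window in 6 of the 41 that were called higher (14.6%) and in 2 of the 34 that were not (5.88%). It was in 16 of the 10608 tested genes with a window (0.15%) and in 25 of the 27305 genes of the table (0.09%). Windows of HSPA5 and XBP1, the higher members with the element that rose most, and of the disulfide isomerase PDIA6 are shown, with the element in capitals.
HSPA5 (promoter at chr9:125241294-125241593, minus strand): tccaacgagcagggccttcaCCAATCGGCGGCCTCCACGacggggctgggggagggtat
XBP1 (promoter at chr22:28800520-28800819, minus strand): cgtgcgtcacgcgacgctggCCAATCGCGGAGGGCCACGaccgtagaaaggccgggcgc
PDIA6 (promoter at chr2:10812736-10813035, minus strand): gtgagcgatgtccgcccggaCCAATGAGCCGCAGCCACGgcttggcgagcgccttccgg
The element began 66 bases before the listed start in HSPA5, 52 in XBP1 and 86 in PDIA6, and the other higher members that held it were HSP90B1, CALR and CANX. HERPUD1 had no exact match to this element in its window, and other forms of the element were not searched. It held the TGATGNAA motif, 176 bases before its start on the other strand.
HERPUD1 (promoter at chr16:56931892-56932191, plus strand): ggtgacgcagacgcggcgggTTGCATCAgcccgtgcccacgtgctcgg

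Transport between the ER and the Golgi had 20 of 33 members higher and 1 lower, the largest number of higher members of any list tested. Its share of higher members, 60.6%, stands beside 8.81% of all tested genes. That share was below those of the ER chaperones (69.2%), the stress effectors (68.4%) and the ATF4 kinases and factors (66.7%). The median was 0.28. Between 18 and 25 were higher as single libraries were left out. SEC24A, a cargo-binding subunit of the COPII coat that buds from the ER, had 139, 145 and 146 CPM with siLRWD1-6, against 57.2, 72.9 and 62.7 CPM with scrambled siRNA (log2 fold change 1.16, SE 0.08, adjusted p = 6.2e-06). YIF1A, a membrane protein of COPII vesicles, had 168, 166 and 159.6 CPM with siLRWD1-6, against 78.2, 83.6 and 74.4 CPM with scrambled siRNA (log2 fold change 1.06, SE 0.07, adjusted p = 2.9e-06). KDELR3, a receptor that returns ER proteins from the Golgi, had 32.3, 25.6 and 29.2 CPM with siLRWD1-6, against 12.5, 7.86 and 12.5 CPM with scrambled siRNA (log2 fold change 1.40, SE 0.16, adjusted p = 0.00022). In all 3 the groups were apart. The COPII subunits SEC24D (0.79), SEC31A (0.62), SEC13 (0.58) and SEC23A (0.52) also rose, as did the Golgi matrix protein GOLGA2 (0.88).

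Subunits of COPI, the coat of vesicles that return from the Golgi to the ER, moved in opposite directions. COPG1 had 377, 373 and 383 CPM with siLRWD1-6, against 197, 225 and 197 CPM with scrambled siRNA (log2 fold change 0.87, SE 0.06, adjusted p = 9.9e-06). COPA (0.59) and COPB2 (0.55) rose as well, while ARCN1 (-0.04), COPZ1 (0.00) and COPE (0.11) were not called. COPB1, which encodes the beta subunit of the same coat, had 82.1, 81.8 and 74.8 CPM with siLRWD1-6, against 188, 207 and 178 CPM with scrambled siRNA (log2 fold change -1.26, SE 0.07, adjusted p = 1.2e-06). It was the single lower member of the list, and its fall was -1.42 relative to siLRWD1-5 (adjusted p = 8.9e-08 by edgeR). CLTC, the heavy chain of the clathrin coat, had 365, 389.6 and 369 CPM with siLRWD1-6, against 825, 902 and 896 CPM with scrambled siRNA (log2 fold change -1.22, SE 0.06, adjusted p = 4.7e-07), and again every siLRWD1-6 library was lower. ASNA1, an ATPase that delivers tail-anchored proteins to the ER, fell by 1.38 on the log2 scale.

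Enzymes of cholesterol synthesis had 10 (6 without scrambled 3, siLRWD1-6 1 or siLRWD1-6 2) of 20 members higher and 1 lower. HMGCS1, which makes HMG-CoA, had 356, 357 and 367 CPM with siLRWD1-6, against 223, 122 and 191 CPM with scrambled siRNA (log2 fold change 1.01, SE 0.19, adjusted p = 0.007). SQLE, the squalene epoxidase, had 221, 229 and 216 CPM with siLRWD1-6, against 142, 117 and 128 CPM with scrambled siRNA (log2 fold change 0.78, SE 0.08, adjusted p = 5.7e-05). For both genes the groups did not overlap, but scrambled 2 was the lowest control. Among the controls, 18 of the 20 members were lowest in scrambled 2, beside 5438 of all 13648 tested genes. Without it, the median of the list was 0.28 in place of 0.42, HMGCS1 was at 0.81, and 12 members were higher. SC5DL, the sterol C5-desaturase, was the lower member (53.03, 49.8 and 46.9 CPM with siLRWD1-6, against 96.4, 89.7 and 84.1 CPM with scrambled siRNA; log2 fold change -0.85, SE 0.08, adjusted p = 5.7e-05).

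Of 21 genes of sterol regulation, uptake and efflux, 5 (1 without siLRWD1-6 2, 3 without scrambled 3 or siLRWD1-6 3) were higher and 1 (0 to 5) lower. SREBF2, the factor that drives the cholesterol genes, rose by 0.52. INSIG1, the ER retention factor of that pathway, rose by 0.75 and lost its call without scrambled 2 (0.69, adjusted p = 0.078 by edgeR). SREBF1 was not called, and had 216, 167 and 185 CPM with siLRWD1-6, against 243, 61.6 and 183 CPM with scrambled siRNA, with scrambled 2 far below every other library. Of 26 fatty acid genes, 8 (5 without siLRWD1-6 2) were higher and 0 (1 at an unadjusted p under 0.05, 0 by DESeq2, up to 1 with 1 library left out) lower. ELOVL6, an elongase, had 71.8, 64.0 and 62.0 CPM with siLRWD1-6, against 37.5, 18.0 and 36.6 CPM with scrambled siRNA (log2 fold change 1.10, SE 0.23, adjusted p = 0.013). Acetyl-CoA carboxylase ACACA (0.72) and fatty acid synthase FASN (0.66) rose, at 0.54 and 0.48 without scrambled 2. The desaturases SCD (0.52) and FADS2 (0.40) were not called in either fit.

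TIMP2, a secreted inhibitor of metalloproteinases, fell most after LRWD1 among the genes named by rule. It had 151, 138 and 156 CPM with siLRWD1-6, against 735, 617 and 685 CPM with scrambled siRNA (log2 fold change -2.19, SE 0.08, adjusted p = 1.7e-07). MFSD1, a lysosomal membrane protein, had 9.69, 9.86 and 9.99 CPM with siLRWD1-6, against 36.1, 51.5 and 37.0 CPM with scrambled siRNA (log2 fold change -2.07, SE 0.13, adjusted p = 3.9e-06). PGF, placental growth factor, had 57.8, 59.0 and 63.6 CPM with siLRWD1-6, against 138, 293 and 123 CPM with scrambled siRNA (log2 fold change -1.62, SE 0.31, adjusted p = 0.0098). In each case the siLRWD1-6 libraries were all lower, as the naming rule required. PGF was more than 2-fold higher in scrambled 2 than in the other controls, and its log2 fold change was -1.12 without that library. PRMT1, the main arginine methyltransferase, had 104, 134 and 112 CPM with siLRWD1-6, against 318, 352 and 300.1 CPM with scrambled siRNA (log2 fold change -1.47, SE 0.10, adjusted p = 4e-06). CMTM6, which stabilises PD-L1 at the cell surface, had 39.4, 44.3 and 37.1 CPM with siLRWD1-6, against 118, 123 and 118 CPM with scrambled siRNA (log2 fold change -1.57, SE 0.07, adjusted p = 4.7e-07). OSTM1, a partner of the lysosomal chloride channel CLCN7, had 25.7, 25.7 and 23.4 CPM with siLRWD1-6, against 67.4, 69.6 and 70.7 CPM with scrambled siRNA (log2 fold change -1.47, SE 0.09, adjusted p = 2.2e-06). The spread between siLRWD1-6 libraries was small beside each of these differences.

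Other genes among the 25 largest falls were the SOCS-box protein WSB2 (-1.81), LSMD1 (-1.75), NT5C3L (-1.73), the pyrophosphate transporter ANKH (-1.70), the MYC-interacting protein CDCA7L (-1.65), the actin-bundling plastin PLS3 (-1.44), the actin histidine methyltransferase SETD3 (-1.40) and LPPR3 (-1.35). The mRNA capping enzyme RNGTT (-1.33), the phospholipase PNPLA6 (-1.29), the pituitary factor POU1F1 (-1.27), the exosome subunit EXOSC6 (-1.24) and TMEM233 (-1.23) belonged to the same set, with COPB1 and ASNA1. By edgeR, adjusted p-values of these genes were 0.0048 or smaller. A call and groups without overlap were conditions for a place in this set. CDCA7L was lowest among the controls in scrambled 2, at 14.9, 13.1 and 13.8 CPM with siLRWD1-6, against 51.6, 29.98 and 49.1 CPM with scrambled siRNA, and was at -1.84 without that library. PLS3 was higher with siLRWD1-6 than with siLRWD1-5 (0.56, adjusted p = 7.8e-05 by edgeR), so its level with siLRWD1-5 was further below scrambled siRNA.

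Genes with the most reads among the lower ones held cytoskeletal genes. ACTG1, gamma actin, had 2427, 2859 and 2825 CPM with siLRWD1-6, against 3626, 5161 and 3913 CPM with scrambled siRNA (log2 fold change -0.65, SE 0.13, adjusted p = 0.0079), with scrambled 2 highest. CNN2, a calponin, had 209.5, 198 and 228 CPM with siLRWD1-6, against 394, 331 and 386 CPM with scrambled siRNA (log2 fold change -0.81, SE 0.08, adjusted p = 6.8e-05). Beta actin (ACTB) was lower by a smaller margin (-0.38). Actin genes have near-identical processed copies, so their counts are less certain than those of other genes. Among YAP and SRF target genes as a list, 5 (1 without scrambled 1 or scrambled 3, 2 without siLRWD1-6 2 or siLRWD1-6 3, 3 without siLRWD1-6 1, 8 without scrambled 2) of 35 were higher and 5 lower, which is 14.3% and 14.3% beside 8.81% and 7.78% of all tested genes. The Hippo kinase LATS2, itself a YAP target, had 19.6, 22.7 and 24.2 CPM with siLRWD1-6, against 44.1, 57.1 and 53.5 CPM with scrambled siRNA (log2 fold change -1.22, SE 0.11, adjusted p = 3.3e-05).

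Collagens and the enzymes that modify them had 11 (7 without siLRWD1-6 1 or siLRWD1-6 3) of 36 members higher and 1 (1 to 4) lower, with a median of 0.23. COL1A1, a chain of type I collagen, had 2232, 1595 and 2443 CPM with siLRWD1-6, against 1118, 873 and 1129.5 CPM with scrambled siRNA (log2 fold change 1.01, SE 0.20, adjusted p = 0.0095). COL5A1 had 1026, 881 and 1012 CPM with siLRWD1-6, against 634, 446 and 589 CPM with scrambled siRNA (log2 fold change 0.81, SE 0.11, adjusted p = 0.0011). LOX, which crosslinks collagen, had 703, 735 and 819 CPM with siLRWD1-6, against 406, 546 and 432 CPM with scrambled siRNA (log2 fold change 0.71, SE 0.11, adjusted p = 0.0019). The groups did not overlap in the 3 genes. COL1A1 and COL5A1 were lowest in replicate 2 of both groups, and 28 of the 36 members had their lowest siLRWD1-6 value in siLRWD1-6 2. COL1A2 (1.04), the prolyl hydroxylases P4HA1 (0.45) and P4HA2 (0.49) and the prolyl 3-hydroxylase LEPRE1 (0.57) also rose, whereas the collagen chaperone SERPINH1 fell (-0.26). Without scrambled 2, 13 members were higher.

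Of 35 matrix proteases and inhibitors, 3 (0 to 9) were higher and 4 lower. The lower ones were TIMP2, TIMP4 (-1.10), the protease ADAMTS4 (-0.50, and -0.32 without scrambled 2) and MMP14 (-0.38), the membrane protease that acts with TIMP2. Matrix glycoproteins and integrins had 7 (14 without scrambled 2) higher and 4 (0 to 7) lower members of 45, including thrombospondin 1 (THBS1, 0.85), integrin beta 8 (ITGB8, 0.95) and SPARC (0.32) among the higher. Versican (VCAN, -1.80) was among the lower and lost its call without scrambled 2 (-1.60). The shares higher and lower were 8.57% and 11.4% of the proteases and inhibitors and 15.6% and 8.89% of the glycoproteins and integrins, beside 8.81% and 7.78% of all tested genes. Of 35 angiogenic ligands and receptors, 2 (1 to 4) were higher and 6 (3 without siLRWD1-6 2, 11 without scrambled 2) lower. These shares were 5.71% and 17.1%, beside the same 8.81% and 7.78%. VEGFA and the ephrin receptor EPHB2 (0.60) rose, and PGF, ephrin B1 (EFNB1, -0.73), semaphorin 3A (SEMA3A, -0.33), KDR (-1.27, and -0.81 without scrambled 2), PDGFRA (-1.21) and ANGPT2 (-1.65) fell, the last 3 at levels below 10 CPM.

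Neural genes were lower in 11 (5 without siLRWD1-6 1 or siLRWD1-6 2, 6 without siLRWD1-6 3) of 30 members and higher in 4 (1 to 7), with a median of -0.38. NEFM, the medium neurofilament, had 42.5, 53.3 and 47.5 CPM with siLRWD1-6, against 108, 175 and 101 CPM with scrambled siRNA (log2 fold change -1.42, SE 0.22, adjusted p = 0.0029). NEFL, the light neurofilament, had 22.2, 22.9 and 29.2 CPM with siLRWD1-6, against 46.0, 84.8 and 41.6 CPM with scrambled siRNA (log2 fold change -1.21, SE 0.26, adjusted p = 0.014). GAP43, a growth cone protein, had 5.92, 5.99 and 4.32 CPM with siLRWD1-6, against 16.0, 10.2 and 13.2 CPM with scrambled siRNA (log2 fold change -1.28, SE 0.18, adjusted p = 0.00077). Both neurofilament genes were highest in scrambled 2, and GAP43 was lowest there among the controls. Without scrambled 2, NEFM was at -1.12, NEFL at -0.82 and GAP43 at -1.41 and the median of the list was -0.17. Neuron-specific enolase ENO2 (-0.47), the adhesion protein NRCAM (-0.46) and the axon guidance receptor ROBO2 (-0.37) were lower with 5 others. L1CAM (0.72), SNAP25 (0.47) and ROBO1 (0.44) were among those that were higher.

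Genes that EWS-FLI1 is known to activate had 3 (2 to 9) of 44 members higher and 6 (3 without siLRWD1-6 3) lower, which is 6.82% and 13.6% beside 8.81% and 7.78% of all tested genes. FLI1, to which reads from the fusion also count, had 75.9, 87.7 and 85.3 CPM with siLRWD1-6, against 66.7, 77.1 and 69.4 CPM with scrambled siRNA and was not called (0.22, adjusted p = 0.082 by edgeR). Without scrambled 2 it was called higher (0.30, adjusted p = 0.0045 by edgeR). The protein kinase PRKCB had 135, 136 and 137 CPM with siLRWD1-6, against 192, 204 and 210.1 CPM with scrambled siRNA (log2 fold change -0.57, SE 0.08, adjusted p = 0.001), and SOX2 (-0.50), LINGO1 (-0.45), ID2 (-0.50, and -0.30 without scrambled 2), RBM11 (-0.30) and XG (-0.57) were also lower. IL1RAP, an interleukin receptor subunit, had 320.3, 292 and 301 CPM with siLRWD1-6, against 163, 177 and 186 CPM with scrambled siRNA (log2 fold change 0.80, SE 0.08, adjusted p = 5.2e-05). Of the 41 genes that EWS-FLI1 represses, 7 (15 without scrambled 2) were higher and 1 (0 to 3) lower, among them the matrix genes above, AXL (0.70) and CYR61 (0.69).

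Immediate early and MAPK feedback genes had 8 (2 without siLRWD1-6 2, 4 without scrambled 1 or siLRWD1-6 1, 20 without scrambled 2) of 39 members higher and 3 (2 to 5) lower. In scrambled 2, 30 of the 39 were higher than in both other controls, beside 5935 of all 13648 tested genes. FOS had 9.20, 8.04 and 4.32 CPM with siLRWD1-6, against 3.54, 3.24 and 3.24 CPM with scrambled siRNA (log2 fold change 1.11, SE 0.25, adjusted p = 0.012), with siLRWD1-6 3 nearest to the controls. EGR1 (0.52) was called with all controls and not without scrambled 2 (0.53, adjusted p = 0.065 by edgeR), and ETV4 (-0.69), IER2 (-0.40, and -0.25 without scrambled 2) and IER5 (-0.58) were lower. IGF and insulin signalling genes had 10 (5 without siLRWD1-6 1 or siLRWD1-6 2) of 42 higher and 1 (0 to 6) lower. The insulin receptor INSR (0.61), FOXO3 (0.51) and the amino acid sensing subunits NPRL2 (0.41) and NPRL3 (0.40) of the GATOR1 complex were higher, and the adaptor IRS2 (-0.52) was lower. INSR had 38.7, 30.2 and 41.9 CPM with siLRWD1-6, against 22.5, 23.2 and 27.1 CPM with scrambled siRNA, without overlap.

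TGF-beta and BMP genes had 5 of 38 members higher and 6 (2 without siLRWD1-6 1, siLRWD1-6 2 or siLRWD1-6 3) lower, which is 13.2% and 15.8% beside 8.81% and 7.78% of all tested genes. The ligands moved apart, TGFB2 having 76.4, 70.6 and 81.4 CPM with siLRWD1-6, against 32.7, 27.6 and 35.6 CPM with scrambled siRNA (log2 fold change 1.25, SE 0.16, adjusted p = 0.0008) and TGFB3 having 3.55, 3.00 and 4.32 CPM with siLRWD1-6, against 8.53, 5.51 and 7.79 CPM with scrambled siRNA (log2 fold change -1.02, SE 0.19, adjusted p = 0.0044). The BMP-responsive inhibitors ID2, ID3 (-0.61) and ID4 (-0.66) were all lower. Scrambled 2 was the highest control for ID2 and ID3, which were at -0.30 and -0.37 without it. Wnt genes had 3 higher and 2 (1 to 7) lower members of 41 (7.32% and 4.88%, both below the shares of all genes), with the receptors FZD6 (0.59) and RYK (0.53) higher and LRP5 (-0.56) and the Wnt carrier WLS (-0.28) lower. Notch and Hedgehog genes had 4 (1 to 4) higher and 2 (0 to 7) lower of 28 (14.3% and 7.14%), including the protease ADAM17 (0.47) among the higher. The Notch ligand JAG1 (-0.51) lost its call without scrambled 2 (-0.39).

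Nuclear subunits of respiratory complex I were lower in 8 (2 without siLRWD1-6 1, 3 without scrambled 1, siLRWD1-6 2 or siLRWD1-6 3, 4 without scrambled 3) of 38 members and higher in 1, and the median was -0.12. NDUFV1, which holds the flavin, had 108, 102 and 106 CPM with siLRWD1-6, against 132, 133 and 126 CPM with scrambled siRNA (log2 fold change -0.31, SE 0.06, adjusted p = 0.0041). NDUFA5 had 41.8, 46.4 and 35.3 CPM with siLRWD1-6, against 25.1, 30.9 and 27.9 CPM with scrambled siRNA and was the higher member (log2 fold change 0.56, SE 0.11, adjusted p = 0.0052). In complexes II to V, 7 (1 without siLRWD1-6 1, 4 without scrambled 1, siLRWD1-6 2 or siLRWD1-6 3) of 40 were lower and 1 (0 to 3) higher (cytochrome c, CYCS, 0.31). Proteasome subunits had 7 (0 without siLRWD1-6 1, siLRWD1-6 2 or siLRWD1-6 3, 4 without scrambled 1) of 37 lower and 1 higher, with log2 fold changes of -0.19 to -0.25 among the lower. None of the proteasome falls was called once any of the siLRWD1-6 libraries was left out.

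Of 75 mitochondrial ribosomal protein genes, 7 (3 without siLRWD1-6 1) were lower and 2 (1 to 7) higher. The share of lower members was 9.33%, near the 7.78% of all tested genes, with MRPL22 at -0.62 and MRPL50 at 0.65. Cytosolic ribosomal protein genes had 7 (4 without siLRWD1-6 1) of 77 lower and 0 (0 at an unadjusted p under 0.05, 0 by DESeq2, up to 1 with 1 library left out) higher, and their share of lower members, 9.09%, was also near it. RPS4X had 520.0, 583 and 520.0 CPM with siLRWD1-6, against 812, 849 and 785 CPM with scrambled siRNA (log2 fold change -0.59, SE 0.07, adjusted p = 0.0002), and RPL4 fell by 0.46 on the log2 scale. Ribosomal protein genes also have many near-identical processed copies. In ribosome biogenesis, 6 (3 without scrambled 1 or siLRWD1-6 2, 14 without scrambled 2) of 54 were higher and 2 (1 to 4) lower, which is 11.1% and 3.70% beside 8.81% and 7.78%. The dyskerin gene DKC1, which encodes a pseudouridine synthase, had 117, 129 and 112 CPM with siLRWD1-6, against 179.6, 194 and 183 CPM with scrambled siRNA (log2 fold change -0.64, SE 0.07, adjusted p = 0.00021), and POLR3G, a subunit of RNA polymerase III, had 36.2, 33.5 and 42.1 CPM with siLRWD1-6, against 21.0, 20.1 and 23.1 CPM with scrambled siRNA (log2 fold change 0.80, SE 0.13, adjusted p = 0.0016). Both were without overlap.

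Autophagy and lysosome genes had 5 (2 without siLRWD1-6 1 or siLRWD1-6 2, 3 without scrambled 1 or scrambled 3, 9 without scrambled 2) of 55 higher and 5 (1 without siLRWD1-6 1, 2 without siLRWD1-6 2 or siLRWD1-6 3) lower, which is 9.09% and 9.09%, near the 8.81% and 7.78% of all tested genes. The autophagy receptor SQSTM1 (p62) had 455, 441 and 453 CPM with siLRWD1-6, against 300.3, 388 and 284 CPM with scrambled siRNA (log2 fold change 0.47, SE 0.10, adjusted p = 0.0079), and ATP6V0D1, a subunit of the vacuolar proton pump, had 78.5, 77.4 and 80.1 CPM with siLRWD1-6, against 119, 148 and 113 CPM with scrambled siRNA (log2 fold change -0.69, SE 0.10, adjusted p = 0.0012). Glycolytic and hypoxia-inducible genes had 7 (4 without siLRWD1-6 2) higher and 6 lower members of 44 (15.9% and 13.6%). The hexokinases moved apart, with HK1 at -0.67 (-0.41 without scrambled 2, its highest control) and HK2 at 0.34, and so did the glucose transporters SLC2A3 (-0.76) and SLC2A1 (0.31). Glutathione and NRF2 genes had 6 (3 without siLRWD1-6 1, 15 without scrambled 2) of 48 higher and 4 (0 to 11) lower (12.5% and 8.33%). The higher ones included SLC7A11, GPX8 (0.70), the NRF2 antagonist BACH1 (0.48) and ferritin light chain FTL (0.41).

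Interferon response genes were lower in 10 (2 without siLRWD1-6 1, 3 without siLRWD1-6 2, 6 without scrambled 3) of 46 members and higher in 2 (1 to 2), with a median of -0.28. IFI44 had 13.7, 11.98 and 13.7 CPM with siLRWD1-6, against 24.3, 17.5 and 22.8 CPM with scrambled siRNA (log2 fold change -0.71, SE 0.13, adjusted p = 0.0028), and OAS3 (-0.39), PARP9 (-0.41) and IRF9 (-0.64, and -0.38 without scrambled 2), a subunit of the factor ISGF3, were lower too. IRF1 had 20.8, 24.8 and 24.4 CPM with siLRWD1-6, against 13.0, 16.6 and 12.3 CPM with scrambled siRNA (log2 fold change 0.74, SE 0.16, adjusted p = 0.011) and STAT2 (0.30) was also higher. Of 19 antigen presentation genes, 2 were higher (the chaperones CALR and PDIA3) and 1 (0 to 1) lower (the peptide transporter subunit TAP2, -0.23), which is 10.5% and 5.26% beside 8.81% and 7.78% of all tested genes. NF-kB and cytokine genes had 0 (3 at an unadjusted p under 0.05, 1 by DESeq2, up to 6 with 1 library left out) of 39 higher and 1 (0 to 2) lower.

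A673 carries p53 in mutant form, and of 30 p53 target genes 5 (1 without siLRWD1-6 1, 3 without scrambled 1 or siLRWD1-6 2, 9 without scrambled 2) were higher and 0 (3 at an unadjusted p under 0.05, 1 by DESeq2, up to 3 with 1 library left out) lower. They included the pro-apoptotic BBC3 (PUMA, 0.98), the kinase PLK2 (0.75) and MDM2 (0.35). Among BCL2 family and apoptosis regulators, 6 (3 without scrambled 3, siLRWD1-6 1 or siLRWD1-6 2) of 35 were higher and 4 (0 to 5) lower, which is 17.1% and 11.4% beside 8.81% and 7.78% of all tested genes. XIAP, a caspase inhibitor, had 85.1, 88.0 and 82.0 CPM with siLRWD1-6, against 48.6, 67.6 and 52.7 CPM with scrambled siRNA (log2 fold change 0.60, SE 0.11, adjusted p = 0.0029), and MCL1 (0.37) and BMF (0.59) were higher. In the small RNA pathway, 7 of 27 were higher and 0 (0 at an unadjusted p under 0.05, 0 by DESeq2) lower, and DCP2, the decapping enzyme, had 85.7, 74.4 and 72.5 CPM with siLRWD1-6, against 44.1, 28.1 and 49.9 CPM with scrambled siRNA (log2 fold change 0.93, SE 0.18, adjusted p = 0.0071), with scrambled 2 the lowest library. TNRC6A, the scaffold of the silencing complex, rose by 0.61, and LIN28B by 0.66. Cell junction genes had 2 (1 to 7) of 27 higher and 1 (0 to 2) lower (7.41% and 3.70%), and cluster histone genes, whose transcripts mostly lack the poly(A) tail that this library kit selects, 0 (1 at an unadjusted p under 0.05, 0 by DESeq2, up to 2 with 1 library left out) of 15 higher and 1 (0 to 2) lower.

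For the process in which LRWD1 acts, the result changed with scrambled 2. With all controls, 0 of the 18 tested origin recognition and licensing genes were called in either direction by edgeR, and the median was -0.10. At an unadjusted p under 0.05, 0 were higher and 0 lower, and by DESeq2 0 and 0 were called. Without scrambled 2, 12 were lower and 0 higher, with a median of -0.24 beside -0.003 over all genes. MCM2, a subunit of the replicative helicase, had 243, 236 and 247 CPM with siLRWD1-6, against 334, 203 and 330.3 CPM with scrambled siRNA. The siLRWD1-6 libraries lay between scrambled 2 and the other controls. MCM2 was not called with all controls (-0.26, adjusted p = 0.33) and was called lower without scrambled 2 (-0.45, adjusted p = 1.1e-05), both by edgeR. CDC6, which loads that helicase, had 81.0, 77.2 and 87.7 CPM with siLRWD1-6, against 98.4, 63.5 and 99.7 CPM with scrambled siRNA, and ORC6 had 66.7, 61.0 and 62.1 CPM with siLRWD1-6, against 78.8, 53.2 and 74.2 CPM with scrambled siRNA. Both showed the same order of libraries, at -0.09 and -0.12 with all controls and -0.26 and -0.26 without scrambled 2. The summed CPM of the list was 2439, 2381 and 2422 CPM with siLRWD1-6, against 2951, 1956 and 2933 CPM with scrambled siRNA.

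Mitosis genes followed the same pattern, with 0 of 59 called in either direction by edgeR with all controls (0 higher and 1 lower at an unadjusted p under 0.05, 0 and 0 by DESeq2) and 35 lower and 0 higher without scrambled 2. All 59 members were lower in scrambled 2 than in the other 2 scrambled libraries, by a median of 0.74 on the log2 scale. Of all 13648 tested genes, 5438 were lower there than in both other controls. Their summed CPM was 6989.5, 6719 and 6773 CPM with siLRWD1-6, against 7793, 4689 and 8077 CPM with scrambled siRNA. The mitotic kinase PLK1 had 137, 134 and 134 CPM with siLRWD1-6, against 179, 118 and 179.6 CPM with scrambled siRNA, and was at -0.24 (adjusted p = 0.28) with all controls and -0.40 (adjusted p = 3.9e-05) without scrambled 2 by edgeR. Cyclin B1 (CCNB1) was not called in either fit, at 0.17 and 0.00. When any other single library was left out, no mitosis gene and no licensing gene was called.

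At the replication fork, 2 of 42 genes were lower with all controls (4.76%, below the 7.78% of all tested genes). Without scrambled 2, 23 were lower (54.8%, beside 13.5% of all tested genes). The genes lower with all controls were RRM2, the small subunit of ribonucleotide reductase, and TIPIN, a partner of the fork protection protein TIMELESS. RRM2 had 206, 216 and 209 CPM with siLRWD1-6, against 357, 227 and 386 CPM with scrambled siRNA (log2 fold change -0.62, SE 0.17, adjusted p = 0.034). TIPIN had 16.9, 19.3 and 20.1 CPM with siLRWD1-6, against 30.2, 26.7 and 27.9 CPM with scrambled siRNA (log2 fold change -0.59, SE 0.09, adjusted p = 0.0016). Scrambled 2 was the lowest control for both, and the call of RRM2 was lost when any of the other libraries was left out. Of 52 DNA damage and repair genes, 1 (0 to 3) was higher, the ligase LIG3 (0.39), whose call was lost without siLRWD1-6 1 or siLRWD1-6 2, and 0 (2 at an unadjusted p under 0.05, 0 by DESeq2, up to 18 with 1 library left out) lower with all controls, and 18 were lower without scrambled 2, including BRCA1 (-0.39). Among G1 regulators, 3 (0 to 6) of 28 were higher and 4 (3 to 12) lower, which is 10.7% and 14.3% beside 8.81% and 7.78% of all tested genes. Cyclin E2 (CCNE2, -1.05), cyclin D3 (CCND3, -0.54), TFDP2 (-0.51) and the inhibitor CDKN2D (-0.67) were lower, and the E2F genes E2F3, E2F4 and E2F5 were higher (0.22 to 0.35). Heterochromatin and DNA methylation factors had 0 (5 at an unadjusted p under 0.05, 1 by DESeq2, up to 5 with 1 library left out) higher and 1 (0 to 10) lower members of 45. Their share of lower members, 2.22%, was below the 7.78% of all tested genes.

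**Figure D4:**
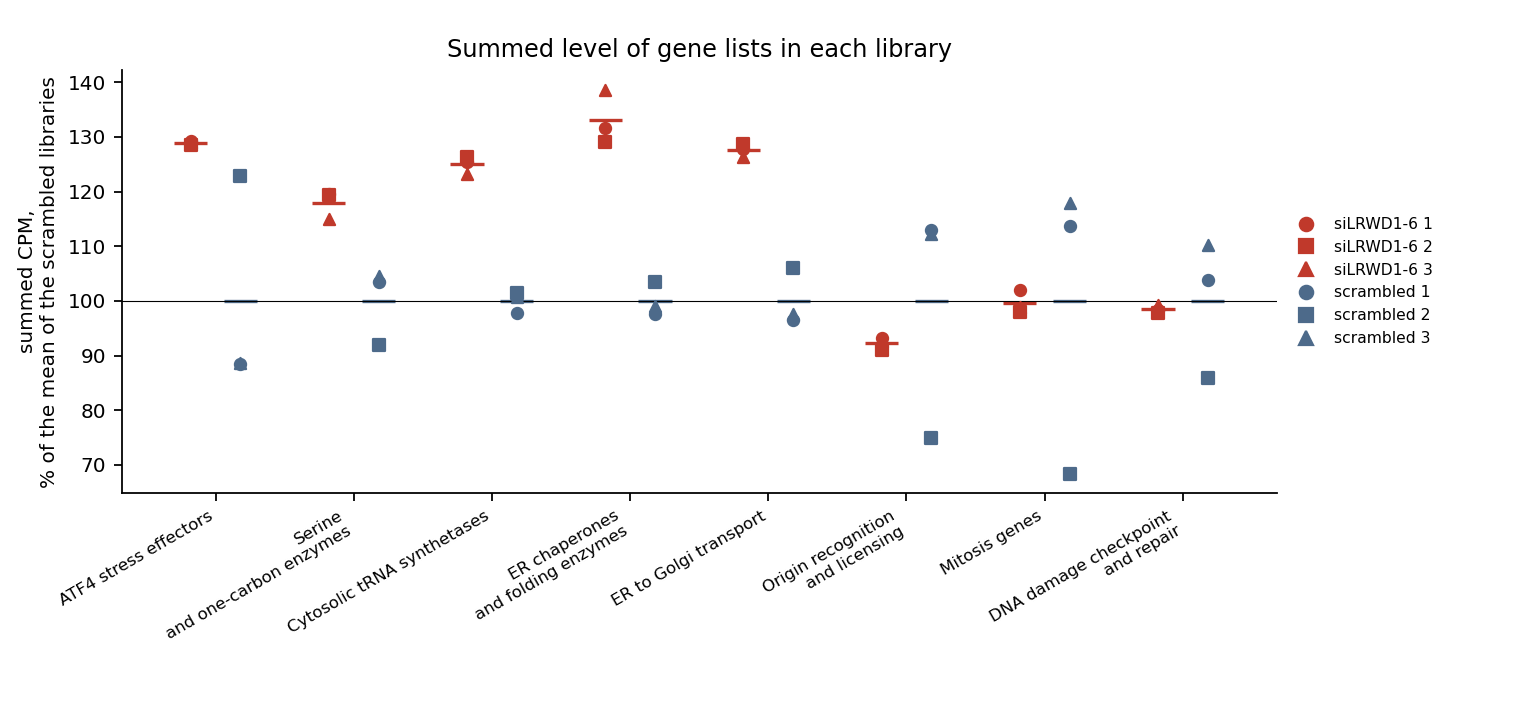
Summed TMM-scaled CPM of the tested members of 8 gene lists in each library, as a percentage of the mean of the 3 scrambled libraries, with siLRWD1-6 in red at the left and scrambled in blue at the right of each list and bars at the means. In the licensing, mitosis and repair lists the siLRWD1-6 libraries lay between scrambled 2 and the other scrambled libraries, whereas in the tRNA synthetase, ER chaperone and ER to Golgi lists they lay above all 3.

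Over all genes, 1193 of the 1203 higher genes and 1007 of the 1062 lower genes kept their call without scrambled 2, which is 97.1% of the calls, and 0 changed direction. Of the 186 genes called at 2-fold or more, 179 kept their call. A further 914 genes were higher and 836 lower only without scrambled 2. Of these, 88.8% of the higher genes were highest among the controls in scrambled 2, and 95.1% of the lower genes were lowest there. A call gained by leaving out scrambled 2 favours such genes, so these shares follow largely from the selection. Over all 13648 tested genes, scrambled 2 was the highest control in 5935 and the lowest in 5438. PTX3, a secreted pentraxin, showed the largest rise among genes with a mean of at least 5 CPM that were called only without that library. It had 125, 227 and 179.8 CPM with siLRWD1-6, against 41.3, 144 and 45.2 CPM with scrambled siRNA, and was at 1.21 (adjusted p = 0.13) with all controls and 2.05 (adjusted p = 0.0076) without scrambled 2 by edgeR. The siLRWD1-6 2 library was also the highest of its group for PTX3.

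Genes higher only without scrambled 2 also held the vasoconstrictor gene EDN1 (1.69), the cytokine TNFSF15 (1.71), the AP-1 subunit FOSL1 (1.14), the stress gene GADD45A (0.99) and the small GTPase RND3 (0.99). FOSL1 had 99.1, 134 and 137 CPM with siLRWD1-6, against 50.4, 139 and 62.8 CPM with scrambled siRNA, and scrambled 2 lay just above the highest siLRWD1-6 library. The kinase SYK (-1.44), the neuronal filament peripherin (PRPH, -1.29), the kinase MAP2K6 (-1.26) and the Hippo regulator AMOT (-1.05) were lower only without it. AMOT had 25.3, 18.9 and 23.6 CPM with siLRWD1-6, against 49.0, 14.6 and 45.0 CPM with scrambled siRNA, and scrambled 2 was its lowest library. Of the 10 higher and 55 lower genes called only with scrambled 2 included, the initiation factor EIF4A2, INSIG1, EGR1, JAG1 and the interferon-induced IFI35 (-0.66, and -0.47 without scrambled 2) were examples.

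**Figure D5:**
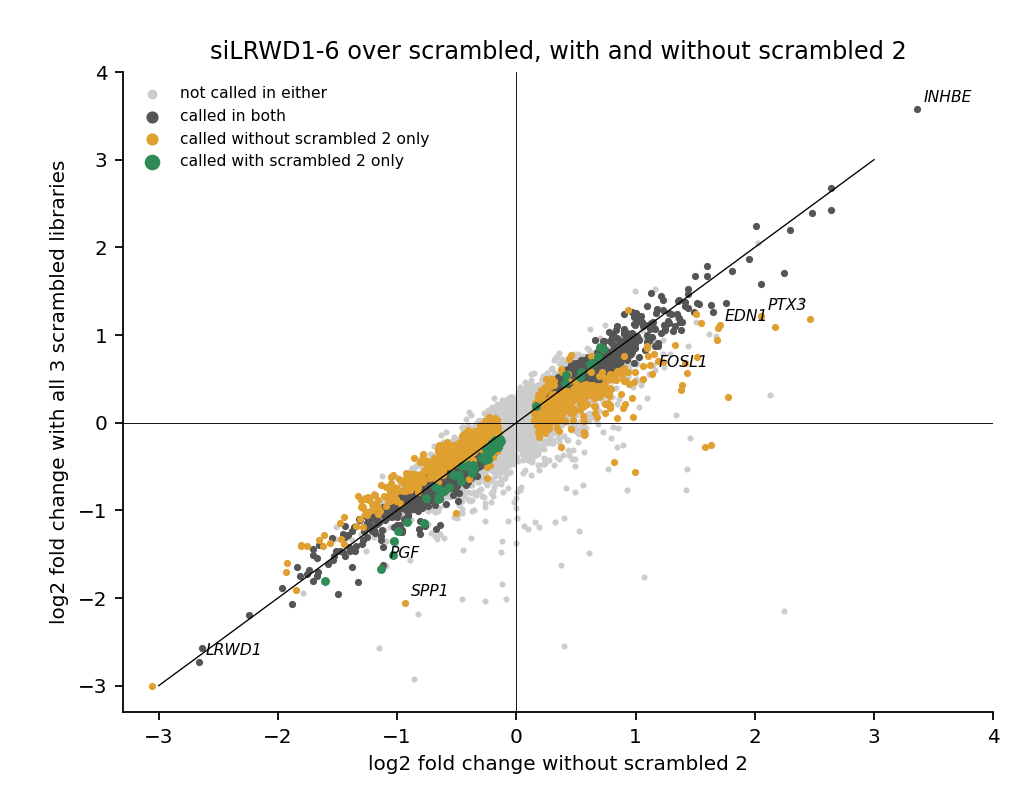
Log2 fold change of siLRWD1-6 over scrambled for each tested gene, without scrambled 2 on the x axis and with all 3 scrambled libraries on the y axis, with the line of equality. Dark points were called in both fits, orange points (1750) only without scrambled 2 and green points (65) only with it, and most orange points lie closer to 0 on the y axis than on the x axis.

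The comparisons of the siRNAs with scrambled siRNA share their control libraries, so the difference between the siRNAs was tested directly, in a contrast that holds no scrambled library. There, 3063 genes were higher with siLRWD1-6 than with siLRWD1-5 (22.4%) and 2856 lower (20.9%), of which 503 and 667 differed at least 2-fold. Without TMM scaling the counts were 2478 and 3609. LRWD1 was lower with siLRWD1-6 (-0.48, adjusted p = 0.0058 by edgeR). Of the kinases and factors of the ATF4 pathway, 14 of 18 were higher with siLRWD1-6, with a median of 0.64 beside -0.006 over all genes. The stress effectors had 10 of 19 higher and 2 lower (median 0.86), and the cytosolic tRNA synthetases 18 of 23 higher (median 0.41). ATF4 was higher by 1.38, CHAC1 by 2.90 and ASNS by 1.11 (edgeR adjusted p = 1.5e-07, 1e-06 and 5.1e-06). With siLRWD1-5 over scrambled siRNA, ATF4 was at -0.45, CHAC1 at -0.70 and ASNS at 0.28, so part of the ATF4 and CHAC1 differences lay with siLRWD1-5.

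In that contrast, 22.4% of all tested genes were called higher and 20.9% lower. Of 26 ER chaperones and folding enzymes, 11 were higher and 5 lower than with siLRWD1-5. Of 33 transport genes, 11 were higher and 6 lower. The numbers of lower ER members were near the share of all genes. HSPA5 was at 0.59 (adjusted p = 0.00015 by edgeR), beside 0.88 for siLRWD1-6 and 0.29 for siLRWD1-5, each over scrambled. KDELR3 did not differ between the siRNAs beyond their spread (0.02, adjusted p = 0.92 by edgeR), and had 32.3, 25.6 and 29.2 CPM with siLRWD1-6, set against 30.5, 25.9 and 29.5 CPM with siLRWD1-5. The immune lists went the other way, with 27 of 46 interferon genes, 12 of 19 antigen presentation genes and 19 of 39 NF-kB and cytokine genes lower with siLRWD1-6. Over scrambled siRNA, the medians of these lists were -0.28, -0.14 and -0.01 with siLRWD1-6 and 0.23, 0.71 and 0.84 with siLRWD1-5, so most of the difference lay with siLRWD1-5 in the antigen presentation and NF-kB lists. Of the 77 ribosomal protein genes, 38 were higher and 2 lower, and of the 44 EWS-FLI1 activated genes 21 were higher and 3 lower. The medians of these lists over scrambled siRNA were -0.06 and -0.04 with siLRWD1-6 and -0.28 and -0.42 with siLRWD1-5. Here too most of the difference lay with siLRWD1-5. Among the largest falls, TIMP2 was lower than with siLRWD1-5 by 2.34 on the log2 scale, MFSD1 by 2.61 and CLTC by 1.11.

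Markers of other cell types were mostly absent or low. Of 12 leucocyte markers, 3 passed the count filter and none was called, and of 12 endothelial and muscle markers 2 passed and none was called. Of 10 epithelial markers 3 passed, and MUC1 was lower (-0.86), a call that was lost without scrambled 2 (-0.76). The summed CPM of the tested leucocyte markers was 29.1, 29.9 and 28.5 CPM with siLRWD1-6, against 32.6, 49.5 and 33.1 CPM with scrambled siRNA. It was 65.02 to 94.7 with siLRWD1-6 and 77.9 to 91.5 with scrambled siRNA for the epithelial markers and 2.92 to 3.73 with siLRWD1-6 and 3.57 to 4.24 with scrambled siRNA for the endothelial and muscle markers. Their part in the results was not tested. CD3E and MS4A1 of lymphocytes, the keratins KRT5, KRT14 and KRT19, and MYOD1, MYOG and MYH7 of muscle had no count in any of the 6 libraries. Of the 10 Ewing sarcoma markers, 9 were tested, among them NR0B1, NKX2-2, STEAP1 and GLI1, and PRKCB was lower. Their summed CPM was 1890.5 to 2047 with siLRWD1-6 and 1935 to 2535 with scrambled siRNA. CD99 was the marker left out, with no count in these libraries. The annotation used for counting is not given, so reads lost in counting and absent CD99 RNA cannot be told apart. In these bulk libraries, fewer cells of a kind and less RNA per cell cannot be told apart.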

How the data were processed

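Libraries of the 9 A673 samples were made with TruSeq RNA v2, an unstranded kit, per the labels' protocols. Reads from a gene and an overlapping antisense gene therefore cannot be told apart. The tools named in the submitters' processing notes are TopHat2 2.0.10, HTSeq 0.5.4p3 and bcl2fastq 1.8.4, with build hg19. The authors deposited raw counts per gene symbol in 1 table of 23368 symbols, and the annotation is not given in the sources used here.

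From these counts, the default expression filter of edgeR 4.0.16 (R 4.3.3) left 13648 genes. Its robust quasi-likelihood model with TMM scaling was fitted to all 9 libraries with group as the only term, which left 6 residual degrees of freedom. siLRWD1-6 was contrasted with scrambled and with siLRWD1-5, and p-values were adjusted by Benjamini-Hochberg over all tested genes, with a threshold of 0.05. The same fit without scrambled 2 gave the second set of values. The script was tested on simulated data first. Alternatives were DESeq2 1.42.0, limma 3.58.1 (voom), other scalings and filters, fits with fewer libraries, each library left out and a replicate block.

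Genes were named by rule. The rule took LRWD1, the 25 largest called changes per direction whose mean reached 5 CPM and whose groups were apart, and the 10 called genes per direction with most reads at 1.5-fold or more. It also took the 10 largest called only with or only without scrambled 2, and members of the gene lists. Symbols of non-coding and uncharacterised loci were left out. Some genes that the rule or the lists hold are not reported here. The genes and lists were chosen with earlier results of these data known, and individual cell cycle genes such as MCM2, CDC6, ORC6 and PLK1 were chosen after their values were seen. Totals of 12124862 to 15674452 counts limit the precision of genes near 1 CPM.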

Additional observations from a re-analysis of the deposited data

How the results depend on the processing

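LRWD1 kept its call in every alternative, at -2.78 to -2.60 with single libraries left out. Of the 428 called genes that could be named, 242 kept their call in all 16 alternatives and none was reversed. Leaving out 1 library gave 758 to 2107 higher and 514 to 1843 lower genes, and 64 to 164 genes at least 2-fold lower. With only the libraries numbered 1 and 3, 1814 genes were higher, 1723 lower and 164 at least 2-fold lower. DESeq2 with scrambled 1 and 3 as the only controls, an alternative chosen after seeing the data, gave 1813 higher genes. With only the 2 groups compared, 690 genes were lower. The cause of these shifts was not tested beyond the number of libraries in each fit. DESeq2, limma-voom, other size factors, unscaled library sizes and other filters on low counts left the counts of higher and lower genes within 1.5 times. Replicate numbers recur in every group, where the labels call them series 1 to 3. Whether a shared number marks a shared experiment is not stated. The main fit, with group as the only term, did not use these numbers. Same-numbered siLRWD1-6 and scrambled libraries deviated from their group means with correlations of 0.283, 0.24 and 0.048. Over all pairs of groups, same-numbered libraries had correlations of 0.048 to 0.371, all positive. Differently numbered libraries had -0.328 to 0.138, so the ranges overlapped. Deviations were taken from the mean of each group, so the correlations within a pair of groups are not independent. Scrambled 3 correlated more with siLRWD1-6 1 (0.082) than with siLRWD1-6 3. With the replicate block, 1472 genes were higher and 1343 lower, 83 and 130 of them at least 2-fold.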
